A study of Mus musculus with 8 samples.

Results

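Binding of NF-YA was described at genes for splicing factors and other RNA-binding proteins, namely at 49 peaks assigned to 41 protein-coding genes, out of 7196 peaks and 3978 assigned gene IDs in the deposited table. Members were all peaks assigned to a protein-coding gene whose symbol starts with *Srsf*, *Hnrnp*, *Snrp*, *Sf3a*, *Sf3b*, *Prpf*, *Ddx*, *Dhx*, *Rbm* or *U2af*, so that the choice rests on gene names and not on any measured value. The symbols of 40 of the 41 genes were equal to those in GENCODE M21, and the remaining gene, *Ddx39a*, is listed there as *Ddx39*. The prefixes *Ddx* and *Dhx* are broader than splicing, since some of these helicases act in ribosome assembly, RNA decay or translation.

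The libraries were made by CUT&RUN, in which an antibody on chromatin guides a nuclease that cuts out the DNA next to the bound protein. The cells were cultured, activated and proliferating muscle stem cells (MuSCs), which regenerate skeletal muscle, from mice on a C57BL/6 background. Control and Taf4asKO cells each gave 2 NF-YA libraries and 2 libraries with unspecific IgG, and the values used here come from the 4 NF-YA libraries. Taf4asKO mice carried loxP-flanked *Taf4a* alleles and the tamoxifen-inducible Cre driver Pax7CreERT, which is active in *Pax7*-expressing MuSCs, and received tamoxifen. The control libraries are labelled WT. By the description of the study the adult control mice were littermates with the same loxP-flanked alleles, with or without the driver. The study also lists wild-type C57BL/6 mice, and the labels do not say which of these gave the control libraries. Tamoxifen is stated for the Taf4asKO mice. The MuSCs had been sorted for integrin α7 or a *Pax7* reporter before culture. The labels do not say whether replicates came from separate mice or cultures, and p-values therefore measure only the spread between these libraries, which may be technical. The table holds binding and not expression, and deletion of *Taf4a* was not checked here. Of 5 MuSC genes looked up in the peak table, *Myod1* and *Cdh15* had 2 peaks each, whereas *Pax7*, *Myf5* and *Itga7* had 0.

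Introns are removed from pre-mRNA by the spliceosome, which assembles from small nuclear ribonucleoproteins (snRNPs) made of RNA and Sm and specific proteins, and is rearranged by PRPF proteins and by DEAD-box and DEAH-box helicases. SR proteins and heterogeneous nuclear ribonucleoproteins (hnRNPs) bind exons and introns of the transcript and direct the choice of splice sites, often with opposite effect. NF-Y is a trimer whose subunit NF-YA contacts DNA at the pentamer CCAAT, a common element of promoters upstream of transcription start sites.

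Of the 12 strongest members, 11 held the pentamer in the centre of the peak. The site nearest the peak centre of the strongest peak is shown for 6 families with 12 bases on either side, to give the context in which NF-YA was found. All sequences are from mm10 (GRCm38) and read 5′ to 3′ on the strand of the gene, with CCAAT or its reverse complement ATTGG in capitals. *Srsf6* was read at chr2:162931224-162931252 on the plus strand, *Hnrnpl* at chr7:28810548-28810576 (plus), *Snrpa* at chr7:27196209-27196237 (minus), *Ddx50* at chr10:62651372-62651400 (minus), *Dhx38* at chr8:109565749-109565777 (minus) and *Rbm15* at chr3:107333376-107333404 (minus).
Srsf6: cagcccggacaaCCAATgagaaataaaac
Hnrnpl: ttagctaggaaaCCAATgagagcgggaag
Snrpa: tctaaccatgtcCCAATTGGccagaagct
Ddx50: tccttcctggagATTGGcccgtgctctgg
Dhx38: acgccaagcgcgATTGGtcgcaaggagac
Rbm15: cgtggccacaaaCCAATgaaagggaagag
The pentamer lay in the sense of the gene at *Srsf6*, *Hnrnpl* and *Rbm15*, and in antisense at *Ddx50* and *Dhx38*. At *Snrpa* CCAAT on one strand overlaps CCAAT on the other, so that the capitals hold both. The *Srsf6*, *Hnrnpl* and *Rbm15* sites share the run CCAATga.

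Many members carried the pentamer more than once. The stretches from the first to the last pentamer are shown for 3 strong peaks with several pentamers and no exonic base in the stretch, because they show the spacing and orientation side by side. They are from chr14:52104194-52104263 (minus) for *Hnrnpc*, chr10:62651301-62651400 (minus) for *Ddx50* and chr4:136310785-136310928 (plus) for *Hnrnpr*.
Hnrnpc: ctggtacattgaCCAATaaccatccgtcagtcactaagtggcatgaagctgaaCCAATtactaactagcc
Ddx50: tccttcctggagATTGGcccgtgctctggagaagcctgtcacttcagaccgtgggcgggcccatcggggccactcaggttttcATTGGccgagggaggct
Hnrnpr: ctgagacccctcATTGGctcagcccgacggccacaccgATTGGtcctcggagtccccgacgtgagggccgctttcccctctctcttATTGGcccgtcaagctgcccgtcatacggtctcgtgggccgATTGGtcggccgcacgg
The pentamers were 41 bases apart from start to start at *Hnrnpc* and 71 at *Ddx50*. *Hnrnpr*, which encodes an hnRNP related to SYNCRIP, had 4 pentamers, all in antisense, with spacings of 26, 48 and 41 bases. Between its pentamers the *Ddx50* stretch also holds GGGCGG, the core of the GC box bound by SP1 and related factors.

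Families differed in how many of their genes had an NF-YA peak. Among the protein-coding genes of GENCODE M21, 10 of 20 *Hnrnp* genes had a peak, followed by 13 of 39 *Rbm* genes (33.3%), 4 of 16 *Dhx* genes, 3 of 12 *Snrp* genes, 3 of 13 *Prpf* genes (23.1%), 2 of 11 *Srsf* genes (18.2%) and 6 of 37 *Ddx* genes (16.2%). None of the 9 *Sf3a* and *Sf3b* genes, which encode the SF3 complexes of the U2 snRNP, and none of the 3 *U2af* genes, which encode the factor that recognises the 3′ splice site, had an assigned peak. In all, 41 of 160 genes of these families had a peak (25.6%), compared with 3197 of 21951 protein-coding genes (14.6%). This difference was not tested, since the members were chosen by name with results of these data known. A gene without a peak is one to which the table assigns none, and weaker binding may have been missed by the peak calls.

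**Figure D1:**
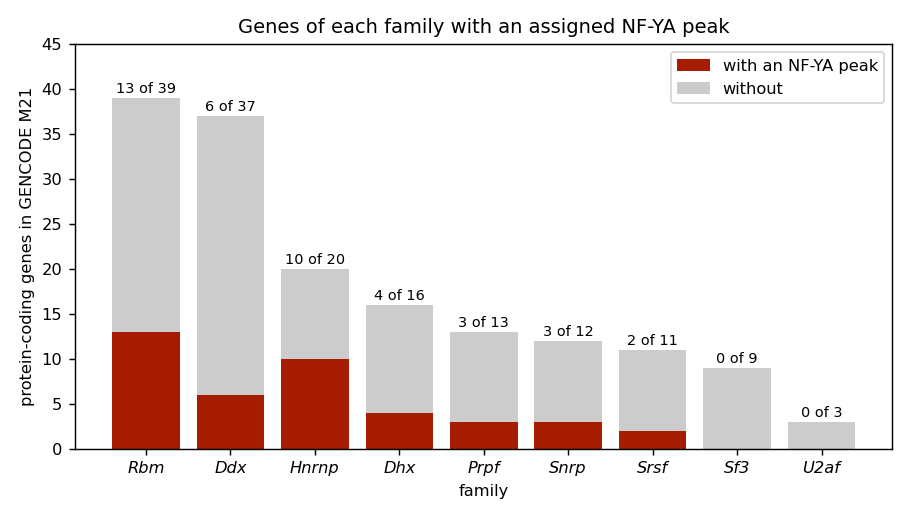
Bars give the number of protein-coding genes in GENCODE M21 for each family (y axis, genes), split into genes with an assigned NF-YA peak and genes without one. The *Hnrnp* bar is the one split evenly, with 10 of 20 genes, and the *Sf3* and *U2af* bars hold 0 genes with a peak.

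*Srsf6* and *Srsf9* were the SR protein genes with a peak, whereas *Srsf1*, *Srsf2*, *Srsf3*, *Srsf4*, *Srsf5*, *Srsf7*, *Srsf10*, *Srsf11* and *Srsf12* had none. Genes with the *Hnrnp* prefix were also split. *Hnrnpa0*, *Hnrnpa3*, *Hnrnpab*, *Hnrnpc*, *Hnrnpf*, *Hnrnpl*, *Hnrnpll*, *Hnrnpr*, *Hnrnpul1* and *Hnrnpul2* had a peak, and *Hnrnpa1*, *Hnrnpa2b1*, *Hnrnpk*, *Hnrnpm* and *Hnrnpu* were among the 10 that had none. For the RefSeq promoters (250 bases before to 50 bases after a start), CCAAT was found on either strand at 24 of the 30 member genes with a promoter in the table, at 42 of 106 family genes without a peak, and at 41.1% of all 27025 genes with a promoter there (37.4% of 32851 promoters). *Hnrnpa1*, *Hnrnpa2b1*, *Hnrnpk*, *Srsf1*, *Srsf2* and *Srsf3* were family genes that had CCAAT in such a promoter and no assigned peak.

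Member peaks lay close to gene starts. The deposited distance to the assigned start was at most 1000 bases for 39 of 49 peaks (79.6%, 95% Wilson interval 66.4% to 88.5%), compared with 67.2% (65.7% to 68.7%) of the 3788 peaks of other protein-coding genes. Within 200 bases the shares were 55.1% (41.3% to 68.1%) and 49.1% (47.5% to 50.7%). Of the 39 peaks near a start, 28 were centred upstream of it (71.8%, compared with 74.6%). For 8 of the 39 peaks, another coding gene on the opposite strand started within 1000 bases of the assigned start (20.5%, 10.8% to 35.5%). This compares with 15.1% (13.7% to 16.5%), and both peaks of *Ddx54* are counted. These partners included *Txnl4b*, itself a gene for a spliceosome-associated protein, at *Dhx38* and *Mtrex*, which encodes a nuclear RNA helicase, at *Dhx29*. By position, 29 peaks were intergenic, 10 in UTRs, 6 in other exons and 4 in introns.

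A few members, 5 in all, may belong to another start than the one assigned. *Hnrnpl* was the prominent case, as its strong peak lay 2050 bases downstream of the assigned start in an intron and 94 bases from the start of *Gm44702*. The *Rbm12b2* peak was centred 1 base from the start of *Tmem67*, and the second peak of *Ddx39a* lay 8 bases from the start of *Adgre5*. The *Hnrnpa3* and *Rbm8a* peaks had *Gm24574* and *6330549D23Rik* as the nearest start, at 133 and 54 bases, but were also 150 and 59 bases from their own. At *Hnrnpf* the peak was 6412 bases from the assigned start and 54 bases from the start of another *Hnrnpf* transcript.

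CCAAT was found on either strand in the central 200 bases of 44 of 49 member peaks (89.8%, Wilson interval 78.2% to 95.6%), compared with 82.9% (81.6% to 84.0%) of peaks at other protein-coding genes and 78.5% of all peaks. Windows of 200 bases placed 1000 bases to either side of the centre contained it in 19 of 98 cases (19.4%, 12.8% to 28.3%) for members and in 23.7% for the other coding genes. At least 2 pentamers were present in 24 member peaks (49% compared with 44.5%). GGGCGG on either strand was present in 20 member peaks (40.8%, 28.2% to 54.8%) and in 44.5% of the others. Intervals of members and of the other coding genes overlapped for each of these shares, with no test of the difference.

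The 79 pentamers of the members were described by position, orientation and neighbouring base, with no test against those elsewhere. Of them 69.6% lay within 50 bases of the peak centre, compared with 69.5% at other coding genes. For the 65 pentamers near an assigned start, the median position was 62 bases upstream (quartiles -117 and -4), compared with 65 bases upstream. In the sense of the gene were 25 of these 65 (38.5%) and 50.8% of those at other coding genes. Neighbouring pentamers were a median of 40 bases apart from start to start (35 pairs, 3 to 109 bases), compared with 41 bases. In 17 of the 24 member peaks with several pentamers all had the same orientation (70.8%, compared with 59.2%). The base after CCAAT was C in 44.3%, G in 25.3%, T in 17.7% and A in 12.7% of the member pentamers. Among those at other coding genes the shares were 48.8%, 29.2%, 8.17% and 13.9%. Pentamers of 1 peak share their region and are not independent.

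**Figure D2:**
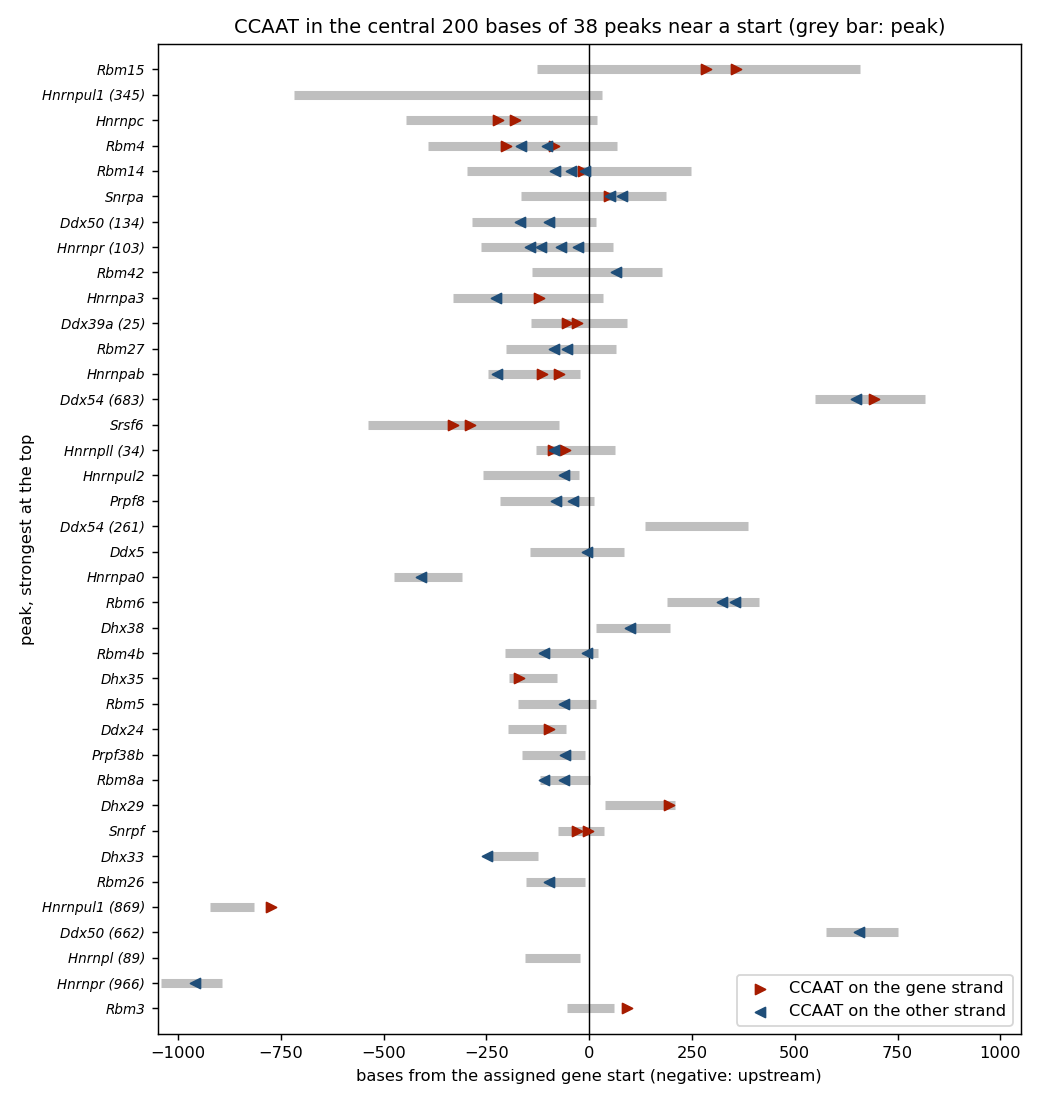
Each line is 1 of 38 member peaks within 1000 bases of the assigned start, with the strongest at the top, and the x axis gives bases from that start (negative: upstream). Grey bars are peaks and triangles are pentamers of the central 200 bases, coloured by strand, 49 of which lie upstream of the start, with exceptions such as *Rbm15* and *Rbm6* downstream of it.

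Members with more pentamers had higher median values. Values are the authors' normalised numbers of reads per peak, and the mean over the 4 libraries is called the strength of a peak. Median strength was 11.5 for the 5 members without a central pentamer, 28.0 for 20 members with 1, 82.75 for 16 members with 2, 86.25 for 5 members with 3 and 235.2 for 3 members with 4, which were *Rbm4*, *Rbm14* and *Hnrnpr*. *Hnrnpul1* was the exception among the 12 members with a strength of at least 100, since the centre of its strong peak held no CCAAT and the nearest pentamer in the peak was 99 bases from the centre. Member strength ranged from 5.0 to 498.75 with a median of 51.5, compared with 34.25 at other protein-coding genes.

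Reads behind the values differed widely, with 351696 and 111265 reads in peaks in control replicates 1 and 2, compared with 734869 and 504921 in Taf4asKO replicates 1 and 2. A median member peak rested on 52.7, 14.1, 107 and 89.5 reads in the same order, and 20 members had fewer than 10 reads in control replicate 2. Each control library thus had fewer such reads than each Taf4asKO library, and the number of reads in peaks and genotype cannot be told apart. Total reads per library were not analysed here.

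To ask whether NF-YA binding at these genes depended on TAF4A, the genotypes were compared with limma on log2(value + 1) for the 4746 peaks with a mean of at least 10. No member was called at an adjusted p under 0.05 among the 46 that passed this minimum, against a background of 45 calls in all peaks (0.948%, of which 0.611% lower and 0.337% higher in Taf4asKO). Without adjustment 6 members had a p under 0.05, all lower in Taf4asKO, against a background of 10.9% of all peaks lower and 6.95% higher at that level. With 2 libraries per genotype, the 2 values of one genotype were both lower or both higher than those of the other at 16 members lower and 5 higher (34.8% and 10.9%), against a background of 28.6% and 19.3%. The median log2 difference was -0.09 over the members, -0.04 over all tested peaks and -0.08 over the other protein-coding genes, and with equal library totals or centring on strong peaks it became 0.04 and 0.11, while that of all peaks became 0.10 and 0.16. The sign of the members' median therefore depended on the scaling, as did that of all peaks. The log2 difference of a tested peak moved up by a median of 0.14 with equal totals and of 0.21 with centring.

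**Figure D3:**
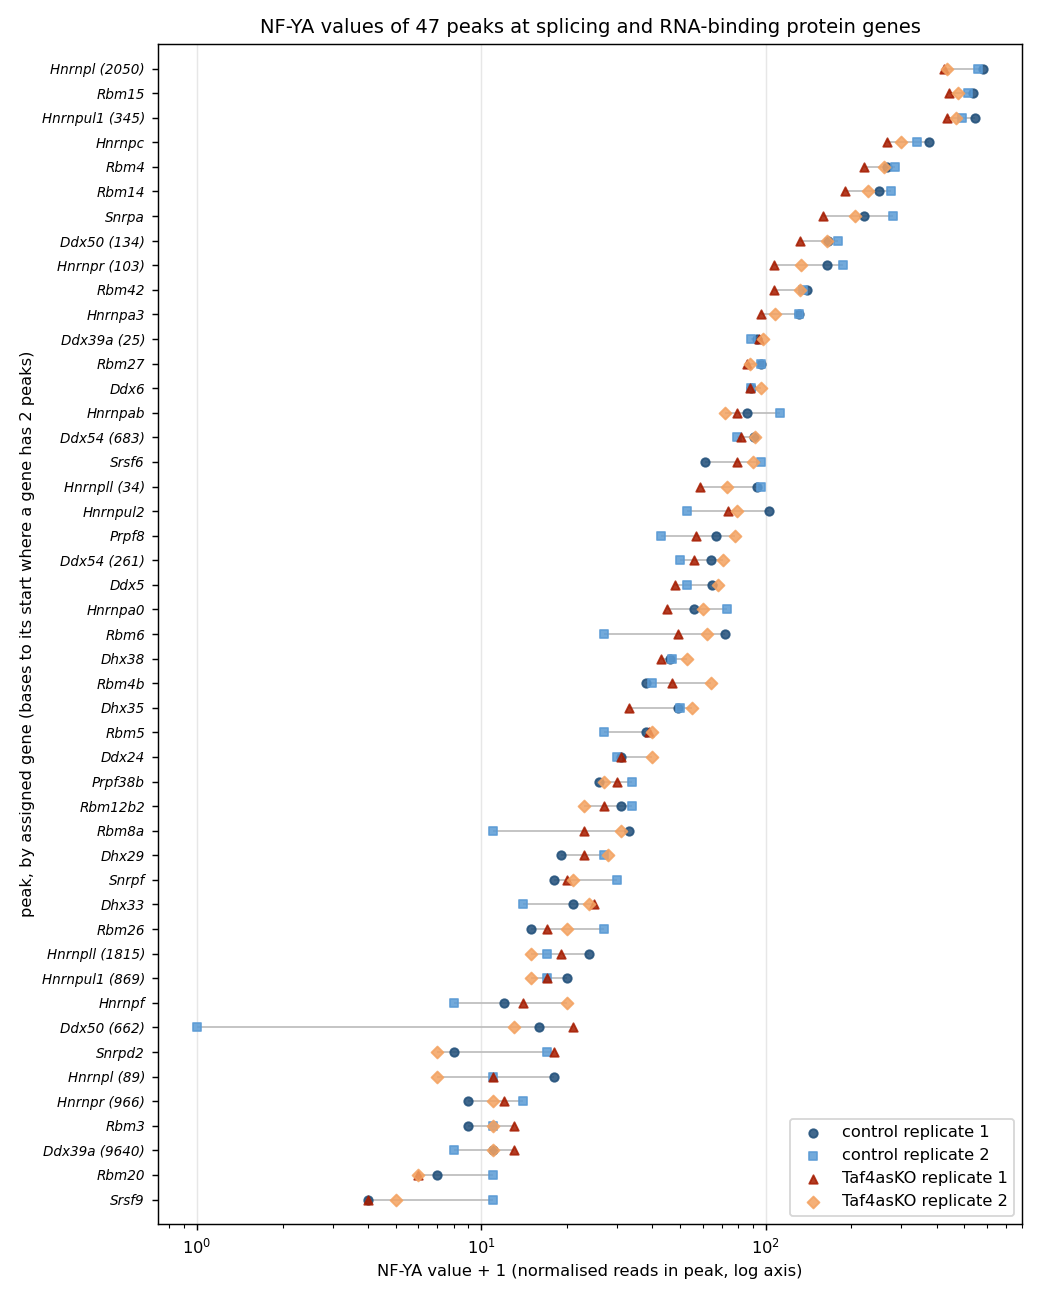
Each line is 1 of 47 member peaks, ordered by strength, and the x axis gives the NF-YA value + 1 (normalised reads in the peak) on a log axis. The 4 symbols are the 4 libraries, and at the 11 strongest of these both Taf4asKO symbols lie to the left of both control symbols.

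The strongest members had lower values in both Taf4asKO libraries. All 12 members with a strength of at least 100 had lower values in both Taf4asKO libraries than in both control libraries, against a background of 59.0% of the 971 peaks of that strength. Their log2 differences ranged from -0.55 to -0.20 with a median of -0.29, compared with a median of -0.22 and 84.7% below 0 over all 971 peaks, and when libraries were centred on these peaks 9 of 12 members stayed below 0 (*Rbm15*, *Hnrnpul1* and *Rbm4* did not) and 53.0% of all. Weaker members showed no such direction, with 5 of 13 below 0 at strengths of 50 to 100 (median 0.05, all peaks -0.06), 4 of 11 at 20 to 50 (0.16, all peaks 0.07) and 5 of 10 at 10 to 20 (-0.01, all peaks 0.16). Since strength was taken over the same 4 libraries, these bins are a description. The peaks of all libraries were merged, so a weak peak may be present through calls in only some libraries. Whether this bears on the direction at weak peaks was not tested.

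**Figure D4:**
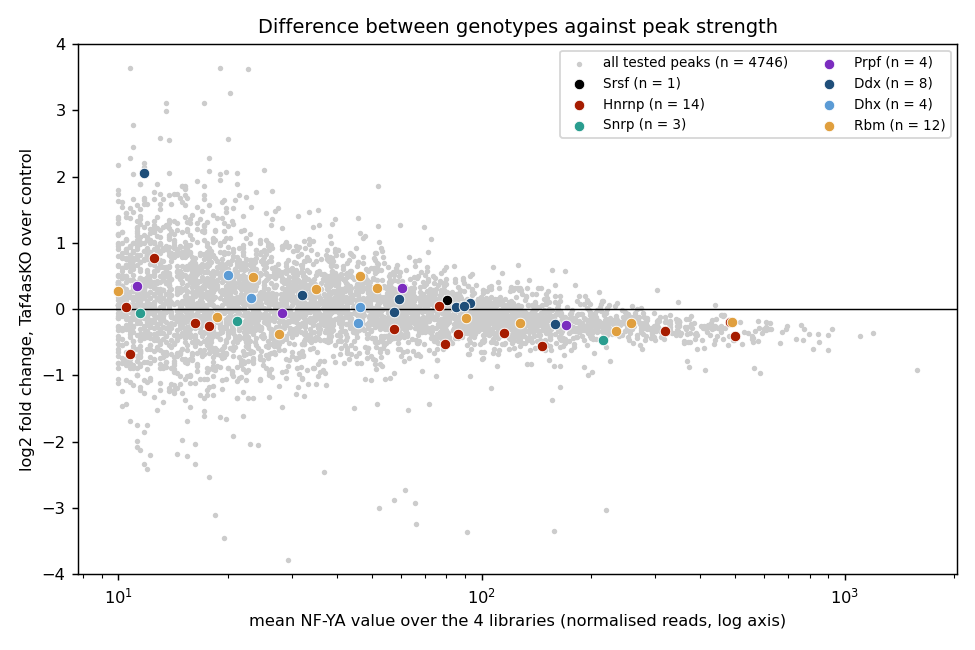
The x axis is the mean NF-YA value over the 4 libraries (log axis) and the y axis the log2 difference between Taf4asKO and control, for 4746 tested peaks in grey and 46 members coloured by family. All peaks drift below 0 with strength, from a median of 0.16 at strengths of 10 to 20 to -0.22 at 100 or more, and the 12 strongest members lie within that cloud.

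Of the SR protein genes, *Srsf6*, which encodes a regulator of exon inclusion, had a peak 305 bases upstream of its start (chr2:162930991-162931455). Its values were 60 and 95 in control compared with 78 and 89 in Taf4asKO. The genotypes overlapped, with a log2 difference of 0.14 (SE 0.24). *Srsf9*, a second regulator of this class, had a peak of 75 bases that was 7373 bases from its start, with 3 and 10 in control compared with 3 and 4 in Taf4asKO. That peak was under the minimum and was not tested.

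The hnRNP genes contributed the strongest member and, with all 4 libraries, the lowest family median. All 14 peaks of these 10 genes were tested, 11 had a log2 difference below 0 (78.6%, all tested peaks 53.8%), 7 were lower in both Taf4asKO libraries than in both control libraries and 1 was higher (50% and 7.14%, all tested peaks 28.6% and 19.3%). The median was -0.32 (range -0.68 to 0.77), and it stayed below 0 with equal library totals (-0.17) and with centring on strong peaks (-0.11), while all peaks had medians of 0.10 and 0.16. Among the hnRNP peaks with a strength of at least 50, 7 of 9 were lower without overlap (77.8%, all peaks of that strength 44.0%), and 8 of 9 were below 0 (median -0.36), compared with 9 of 16 peaks of the other families (-0.09) and 71.3% of all peaks of that strength (-0.16). Without control replicate 1 the hnRNP median was -0.31, and that of the 3 *Snrp* peaks was lower (-0.6). No test of the hnRNP family was made, and no hnRNP peak passed the threshold.

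*Hnrnpl* encodes a splicing regulator that binds CA-rich RNA. Its strong peak (chr7:28810280-28810902, ENSMUSG00000015165) had 581 and 558 in control compared with 422 and 434 in Taf4asKO, or 569.5 ± 16.3 and 428 ± 8.49 (SD, n = 2). The genotypes did not overlap and were more than 100 apart. The log2 difference of -0.41 (SE 0.11) had the lowest adjusted p of all members in limma, 0.11, and it passed the threshold with equal medians (adjusted p = 0.0392) and with weights from the reads (0.0436). Over the other settings its adjusted p ranged from 0.0998 to 0.739, and with centring on strong peaks its log2 difference was -0.20. A weak second peak 89 bases from the assigned start (chr7:28808386-28808518) had 17 and 10 in control and 10 and 6 in Taf4asKO, with overlap at 10, no central CCAAT and a log2 difference of -0.68 (SE 0.50), which ranged from -1.04 without control replicate 2 to -0.33 without control replicate 1. At *Hnrnpl*, NF-YA binding was therefore strong inside the gene and weak at the annotated start.

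The peak of *Hnrnpul1*, which encodes an hnRNP U-like protein, lay 345 bases upstream (chr7:25754728-25755475). Values were 543 and 489 in control compared with 435 and 465 in Taf4asKO. The genotypes did not overlap, but the nearest libraries were 489 and 465, and the log2 difference was -0.20 (SE 0.12), 0.02 with centring on strong peaks and -0.12 without control replicate 1. A second *Hnrnpul1* peak 869 bases from the start had 19 and 16 in control and 16 and 14 in Taf4asKO, with the genotypes meeting at 16.

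*Hnrnpc*, whose product packages nascent transcripts and binds uridine tracts, had a peak upstream of its start (chr14:52104010-52104473) that spans the stretch with 2 sense pentamers shown above. It had 375 and 339 in control compared with 266 and 299 in Taf4asKO. Both Taf4asKO libraries were below both controls, with a log2 difference of -0.34 (SE 0.13, adjusted p in limma 0.223), and -0.13 with centring on strong peaks. The 4 antisense pentamers of *Hnrnpr* lay in a peak (chr4:136310679-136310999) with 163 and 186 in control compared with 106 and 132 in Taf4asKO. Again the genotypes did not overlap, and the log2 difference of -0.55 (SE 0.17, adjusted p in limma 0.15, and -0.34 with centring on strong peaks) was the lowest among the 12 strongest members. A weak *Hnrnpr* peak 966 bases upstream had values whose group means were equal (ratio 1.0).

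*Hnrnpll*, whose product regulates alternative splicing in lymphocytes, had a peak 34 bases upstream (chr17:80062273-80062463) with 92 and 95 in control compared with 58 and 72 in Taf4asKO. The genotypes were separate, with a log2 difference of -0.53 (SE 0.20, adjusted p in limma 0.206), and -0.32 with centring on strong peaks. *Hnrnpa3* had 130 in both control libraries and 95 and 107 in Taf4asKO, a log2 difference of -0.36 (SE 0.17), and -0.15 with centring on strong peaks. The opposite direction was seen at *Hnrnpf*, which encodes a protein that binds G tracts. Its weak peak had 11 and 7 in control and 13 and 19 in Taf4asKO, separate by a small margin, with a log2 difference of 0.77 (SE 0.45, adjusted p in limma 0.378) on as few as 2.15 reads in control replicate 2. It was 0.48 without that library, 0.51 without Taf4asKO replicate 2 and 0.97 with centring on strong peaks. *Hnrnpab* had 85 and 111 in control, both above its 78 and 71 in Taf4asKO (log2 difference -0.38, SE 0.20). This was -0.17 with centring on strong peaks and -0.19 without control replicate 2, and -0.57 without control replicate 1. *Hnrnpa0* had control values of 55 and 72 and Taf4asKO values of 44 and 59, and *Hnrnpul2* had 102 and 52 against 73 and 78. At *Hnrnpul2* the control replicates enclosed both Taf4asKO values, and its log2 difference of 0.05 had no stable sign, with -0.43 without control replicate 2, 0.53 without control replicate 1 and -0.17 with weights from the reads. The weak second *Hnrnpll* peak, 1815 bases from the start, had a log2 difference of -0.26, which was -0.06 with centring on strong peaks and -0.01 without control replicate 1.

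Of the snRNP proteins, *Snrpa*, which encodes the A protein of the U1 snRNP, had a strong peak across its start (chr7:27196085-27196437). Values were 221 and 280 in control compared with 158 and 205 in Taf4asKO, or 250.5 ± 41.7 and 181.5 ± 33.2 (SD, n = 2). The genotypes did not overlap, although the nearest libraries, 221 and 205, were closer to each other than the replicates of either genotype. The log2 difference was -0.46 (SE 0.18, adjusted p in limma 0.214), and -0.25 with centring on strong peaks. It was -0.28 without Taf4asKO replicate 1, -0.29 without control replicate 2 and -0.65 without Taf4asKO replicate 2. *Snrpf* and *Snrpd2* encode Sm core proteins and had weak peaks. *Snrpf* had 17 and 29 in control and 19 and 20 in Taf4asKO, and *Snrpd2*, at a peak 6591 bases from its start without CCAAT, had 7 and 16 in control compared with 17 and 6 in Taf4asKO. At both genes the genotypes overlapped.

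*Prpf8*, the gene of the large protein at the catalytic core of the spliceosome, had 66 and 42 in control compared with 56 and 77 in Taf4asKO. *Prpf38b* had 25 and 33 in control and 29 and 26 in Taf4asKO. Neither of these 2 genes separated the genotypes.

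No helicase gene passed the threshold. *Ddx50* encodes a nucleolar RNA helicase, and its upstream peak (chr10:62651201-62651503) had 165 and 179 in control compared with 131 and 163 in Taf4asKO. Here 163 and 165 were nearly equal, and the log2 difference was -0.23 (SE 0.17), -0.02 with centring on strong peaks and -0.08 without Taf4asKO replicate 1. *Ddx39a*, a helicase of mRNA export, had 92 and 88 in control and 94 and 97 in Taf4asKO at its start (log2 difference 0.08, SE 0.17), and *Ddx6*, a helicase of mRNA decay, had 88 and 88 in control compared with 87 and 95 in Taf4asKO (0.05, SE 0.18). Both Taf4asKO values of *Ddx39a* were above its controls. With centring on strong peaks the 2 differences were 0.29 and 0.26 (SE 0.15 each, adjusted p in limma 0.312 and 0.367), and with equal totals 0.23 and 0.19. Over the 8 tested *Ddx* peaks, 6 were above 0 (46.1% of all tested peaks), with a median of 0.07. With centring 7 of 8 were above 0 (66.8% of all) with a median of 0.27, and without Taf4asKO replicate 2 it was 3 of 8 (43.0% of all) with a median of -0.02. *Ddx5*, whose product is a splicing cofactor that also acts with MYOD1 in muscle, had 64 and 52 in control and 47 and 67 in Taf4asKO at its start. Its replicates differed more than its genotypes, with a log2 difference of -0.04 (SE 0.24). The sign turned with equal totals (0.10), with centring (0.17), without control replicate 1 (0.11) and without Taf4asKO replicate 1 (0.21). *Ddx54* (with 2 peaks) and *Ddx24* overlapped between genotypes as well, with differences of 0.03, 0.16 and 0.21, of which both at *Ddx54* came to -0.07 and -0.02 and that at *Ddx24* to 0.02 at their lowest without 1 library, and the second *Ddx39a* peak was under the minimum.

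A second *Ddx50* peak in an exon, 662 bases from the start (chr10:62650469-62650642), was the 1 member beyond 2-fold, against a background of 4.29% of peaks with a mean above 10 whose ratio of group means exceeded 2 and 3.13% whose ratio was under 0.5. It had 15 and 0 in control and 20 and 12 in Taf4asKO, so that control replicate 1 lay between the Taf4asKO libraries. The log2 difference of 2.05 (SE 1.07, adjusted p in limma 0.337) rested on 0 reads in control replicate 2, where the fewest reads fell in peaks. Without that library the ratio was no longer beyond 2.

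The 4 peaks of DEAH-box helicase genes had log2 differences from -0.22 to 0.51. *Dhx38*, the gene of a helicase acting in the second catalytic step of splicing, had 45 and 46 in control compared with 42 and 52 in Taf4asKO, with a log2 difference of 0.04 (SE 0.23). *Dhx35* had 48 and 49 in control and 32 and 54 in Taf4asKO, and the Taf4asKO replicates differed by more than the genotypes. *Dhx29*, whose product acts in translation initiation, had 18 and 26 in control compared with 22 and 27 in Taf4asKO. *Dhx33* had 20 and 13 in control and 24 and 23 in Taf4asKO, which was the 1 peak of this family without overlap (log2 difference 0.51, SE 0.34, adjusted p in limma 0.441), against 19.3% of all tested peaks higher without overlap. Without control replicate 2, where this peak held 3.99 reads, the difference was 0.22.

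Among the RBM proteins, *Rbm15*, whose product recruits the m6A RNA methylation machinery, had the strongest peak (chr3:107333016-107333800), in the UTR downstream of its start. It had 533 and 515 in control compared with 440 and 472 in Taf4asKO. The genotypes did not overlap, with a log2 difference of -0.20 (SE 0.11), and 0.01 with centring on strong peaks. *Rbm4* and *Rbm14* encode splicing and transcription regulators and lie near each other on chromosome 19. *Rbm4* (chr19:4793834-4794292) had 267 and 284 in control and 220 and 259 in Taf4asKO, and *Rbm14* (chr19:4811386-4811932) had 250 and 274 in control compared with 189 and 228 in Taf4asKO. Both were separate between genotypes, with log2 differences of -0.21 and -0.33 (adjusted p in limma 0.459 and 0.278), which became 0.01 and -0.12 with centring on strong peaks. Without Taf4asKO replicate 1 they were -0.09 and -0.20, and without Taf4asKO replicate 2 that of *Rbm4* was -0.32.

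The paralog *Rbm4b*, on the same chromosome (chr19:4756292-4756519), differed in the other direction, with 37 and 39 in control compared with 46 and 63 in Taf4asKO. Its genotypes did not overlap, and the log2 difference was 0.49 (SE 0.24, adjusted p in limma 0.311), and 0.27 without Taf4asKO replicate 2. *Rbm5*, a splicing regulator of apoptosis genes, had 37 and 26 in control, under its 38 and 39 in Taf4asKO, with a log2 difference of 0.30 (SE 0.27), and 0.06 without control replicate 2. The margin between these genotypes was 1 unit. *Rbm42* (139 and 134 against 106 and 131), *Rbm27* (95 and 95 against 85 and 87) and *Rbm12b2* (30 and 33 against 26 and 22) were lower in both Taf4asKO libraries, with log2 differences of -0.21, -0.14 and -0.38. With centring on strong peaks the difference of *Rbm27* turned to 0.07, that of *Rbm42* was within 0.01 of 0 and that of *Rbm12b2* was -0.18. Without Taf4asKO replicate 1 *Rbm42* had a difference of -0.06. *Rbm6* and *Rbm8a*, the latter a gene of the exon junction complex, had their lowest value in control replicate 2, with 26 and 10 against 48 to 71 and 22 to 32 in the other libraries. Without that library their log2 differences turned from 0.32 and 0.49 to -0.39 and -0.31. *Rbm6*, *Rbm8a*, *Rbm26* and *Rbm3* overlapped between genotypes. *Rbm20*, the splicing factor of titin in muscle, had a peak 5723 bases upstream with values of 5 to 10, too low for the test.

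A further 123 genes of the spliceosome and of RNA-binding proteins lie outside the symbol pattern, and 30 of them had a peak (24.4%, compared with 25.6% of the pattern's genes). Of their 39 peaks 33 were tested, and 0 were called in either direction by limma (all tested peaks 0.948%). An unadjusted p under 0.05 was found at 8, all lower in Taf4asKO (all tested peaks 10.9% lower), and at 4 with centring on strong peaks. At a strength of 100 or more, 262 of all 971 peaks were lower at that level. The 8 included *Cirbp* peaks with an unadjusted p in limma of 0.0206, 0.0228 and 0.0261. In this list 28 of 33 log2 differences were below 0 (84.8%, all tested peaks 53.8%), with a median of -0.23. With centring on strong peaks these were 18 of 33 and -0.02, while all tested peaks had a median of 0.16 and 66.8% above 0. Of all peaks with a strength of 100 or more 84.7% were below 0 (median -0.22), and of those at 50 or more 71.3% (-0.16). The peaks of this list had a median strength of 59.5, above that of the members, 51.5, and of all peaks, 17.25. The strongest were at *Khsrp*, which encodes a KH-domain splicing and mRNA decay factor, with 794 and 727 in control compared with 574 and 660 in Taf4asKO, at *Sf1*, the gene of the branch-point binding protein, with 472 and 496 in control compared with 353 and 381 in Taf4asKO, and at *Wbp11*, a splicing factor gene, with 331 and 385 in control compared with 256 and 274 in Taf4asKO. All of these were separate between genotypes. The lowest adjusted p of the list was 0.0714, at a weak peak 9047 bases from the start of *Luc7l3*, a U1 snRNP-associated gene, which passed the threshold with equal medians (0.0421), a pseudocount of 5 (0.0451) and weights from the reads (0.00182) and had 26 and 16 in control and 3 and 3 in Taf4asKO.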

How the data were processed

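NF-YA binding was measured by CUT&RUN in control and Taf4asKO MuSCs. The authors aligned read pairs of 36 bases to mm10 (Trimmomatic 0.39, STAR 2.7.11a and Picard 3.1.1 per the submitters' processing notes), called peaks with MACS against IgG, merged the peaks of all libraries, counted reads with featureCounts and normalised them with DESeq2. The deposited table gives for each peak a score, the normalised number of reads rounded by the authors to whole numbers, and the distance to the nearest gene start within 10000 bases, by which genes were assigned. IgG libraries were not analysed here.

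Because the values are normalised, limma 3.58.1 (R 4.3.3, with trend) was run on log2(value + 1) over all peaks with a mean of at least 10, with Benjamini-Hochberg adjustment, and a call is an adjusted p under 0.05. Fold changes are differences of mean log2(value + 1), which can depart from the ratio of group means in either direction at low peaks. On simulated data 155 of the 198 changed peaks tested (true log2 size 2) were called. Of the unchanged peaks 0 were called, and the 4732 tested peaks include the changed ones. Differences as small as those of the strongest members (-0.55 to -0.20) were not simulated. The simulation therefore does not say how often such differences would be called. From the gaps between values, 1 read was worth 1.04 and 3.26 in control and 0.431 and 0.681 in Taf4asKO. Since a read of the Taf4asKO libraries counts for less than 1 unit of the rounded values, no count test was run. The reads in peaks derived from these values set the counting error of a peak, total reads were not analysed here, and Wilson intervals cover counting error of peaks only.

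Positions were checked against GENCODE M21 (3972 of 3978 gene IDs found). Sequences were read from GRCm38 with pysam 0.24.0, and promoters are those of RefSeq. Tables were handled with pandas 2.3.3 and numpy 2.4.6 in Python 3.11.15, and plots drawn with matplotlib 3.10.9. Members, lists and tests were chosen with earlier results of these data known. Named peaks are, per family, the 3 strongest, the 3 largest increases and decreases among tested members, members beyond 2-fold, strong peaks without central CCAAT and both peaks of the 5 strongest genes with 2 peaks. Further members are named to account for the rest, and 1 item is not reported here. Alternatives were 3 other scalings, no minimum, a pseudocount of 5, the replicate block, weights from reads, other thresholds and windows, and leaving out each library.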

Additional observations from a re-analysis of the deposited data

How the results depend on the processing

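Each genotype had 2 libraries, and the median member peak of control replicate 2 rested on 14.1 reads. No member was called with equal totals, centring, no minimum, a pseudocount of 5, a threshold of 0.1 or without any 1 library, where the lone library is assumed to vary like the others. Equal medians and weights from reads each gave 1 call, *Hnrnpl*, and the cause was not tested. The listed genes outside the pattern went from 0 calls to 1, *Luc7l3*, with equal medians, a pseudocount of 5 and weights. Over all peaks calls ranged from 0 without a minimum, and 0 without any 1 library, to 287 with weights, compared with 45, and 129 with equal medians. The hnRNP median was -0.17 with equal totals and -0.11 with centring, and the member median ranged from -0.16 to -0.04 without 1 library.

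With the replicate number as a block, 0 members were called, the smallest adjusted p in limma was 0.121 and 31 peaks were called in all. The labels do not say what a shared number stands for, and with 2 pairs the deviations from the group means correlated at -0.09 over tested peaks and 0.26 over strong peaks, so that pairing is not established.

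Members beyond 2-fold numbered 1 to 4 without 1 library. They were 4 without control replicate 1 (*Rbm6*, *Rbm8a*, *Hnrnpf* and *Ddx50*), 1 without control replicate 2 (*Hnrnpl*, 89 bases from the start), 2 without Taf4asKO replicate 1 (*Hnrnpf* and the same *Hnrnpl* peak) and 1 without Taf4asKO replicate 2 (*Ddx50*). A ratio of 1.5 gave 3, namely *Hnrnpf* and *Ddx50* higher and the weak *Hnrnpl* peak lower. The share near starts was 55.1% within 200 bases and that with CCAAT 75.5% in the central 100 bases.

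Of the 46 tested members, 5 changed sign with equal totals, 9 with centring (all to above 0) and 6 with weights, and 3 to 11 without 1 library (11 without control replicate 2), compared with 0 under the remaining settings. Among the peaks named by rule these were *Prpf38b* and *Snrpd2* with equal totals (0.08 each). With centring they were *Rbm15* and *Rbm4* (0.01 each), *Hnrnpul1* and *Snrpf* (0.02 each) and *Prpf38b* and *Snrpd2* (0.14 each). With weights *Prpf38b* came to 0.00 and *Snrpd2* to 0.32. With 1 library left out, *Srsf6* ranged from -0.19 to 0.47, *Dhx29* from -0.09 to 0.42 and the weak *Hnrnpr* peak from -0.29 to 0.35, each lowest without control replicate 1. *Prpf8* ranged from -0.01 to 0.63, *Prpf38b* from -0.26 to 0.13 and *Snrpf* from -0.55 to 0.19, and these crossed 0 without control replicate 2. *Snrpd2* ranged from -0.74 to 0.63, *Dhx35* from -0.58 to 0.15, *Ddx6* from -0.02 to 0.11 and *Dhx38* from -0.11 to 0.19. None of these had an adjusted p under 0.05 in any setting.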
